A study of Mus musculus with 17 samples.

Results

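Transcripts of 10 genes of glycolysis were followed in sorted mouse hematopoietic stem and progenitor cells (HSPC), which sit in the bone marrow and give rise to blood. The 10 genes were chosen by name, as a glucose transporter and enzymes that carry glucose to lactate: Slc2a1, Hk1, Hk2, Pfkl, Aldoa, Tpi1, Pgk1, Pgam1, Pkm and Ldha. The choice was made with earlier results of these data known, so the shares of all genes given below are a reference and not an independent test. They are 10 of the 35321 gene symbols counted, and all 10 were among the 14920 that passed the filter on low counts. All animals were wild-type C57BL/6J mice, an inbred laboratory strain, and all received an intraperitoneal injection. The PBS group (5 libraries, titled day 0) received phosphate buffered saline. The LPS groups received lipopolysaccharide, a bacterial cell wall component that sets off inflammation, 24 h (3 libraries) or 72 h (3 libraries) before the marrow was taken. Another pair of groups received LPS and an IL-10R blocking antibody, directed at the receptor for interleukin-10, a cytokine that restrains inflammation, at 24 h (3 libraries) and at 72 h (3 libraries). The series' design text gives 5 ug of LPS and 100 ug of antibody, whereas the sample protocol gives the same figures in mg, and neither was taken as correct. No group analysed here received the antibody without LPS. The labels name no age, sex or batch, and do not say whether libraries came from separate mice, so the p-values measure the spread between libraries, which may be technical.

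Glycolysis splits glucose into pyruvate in the cytosol and yields ATP without oxygen. Pyruvate then enters the mitochondria or is reduced to lactate, which regenerates the NAD+ that the pathway consumes. Blood stem cells at rest are known for low mitochondrial activity and reliance on glycolysis, and dividing progenitors and activated immune cells raise glucose use. The transcription factors Myc and hypoxia-inducible factor 1 (HIF-1) are textbook activators of glycolysis genes and bind short DNA motifs, CACGTG for Myc and a core of ACGTG or GCGTG for HIF-1.

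The promoters of 3 members are shown because Ldha and Pgk1 were the members for which the antibody effect differed between times, and Hk1 the member that was not called at 24 h after LPS. Each runs from 250 bases before to 50 bases after a transcription start listed by RefSeq on GRCm38.p6, and is read 5′ to 3′ on the strand of the gene. Capitals mark ACGTG or GCGTG on either strand, and overlapping matches are counted separately. The Ldha sequence is at chr7:46845554-46845853 on the plus strand, that of Pgk1 at chrX:106186850-106187149 on the plus strand and that of Hk1, its second listed start, at chr10:62340372-62340671 on the minus strand.
Ldha: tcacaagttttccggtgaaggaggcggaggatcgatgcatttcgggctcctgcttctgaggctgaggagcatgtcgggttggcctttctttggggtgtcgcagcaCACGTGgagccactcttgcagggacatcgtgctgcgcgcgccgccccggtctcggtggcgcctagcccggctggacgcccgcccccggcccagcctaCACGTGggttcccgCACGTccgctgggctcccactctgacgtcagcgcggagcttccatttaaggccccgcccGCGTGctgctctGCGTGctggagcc
Pgk1: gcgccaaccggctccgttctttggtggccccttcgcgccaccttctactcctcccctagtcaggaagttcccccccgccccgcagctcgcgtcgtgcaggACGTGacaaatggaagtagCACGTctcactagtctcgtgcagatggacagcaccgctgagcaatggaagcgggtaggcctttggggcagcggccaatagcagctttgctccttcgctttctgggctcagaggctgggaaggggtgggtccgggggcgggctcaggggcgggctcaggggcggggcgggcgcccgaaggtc
Hk1: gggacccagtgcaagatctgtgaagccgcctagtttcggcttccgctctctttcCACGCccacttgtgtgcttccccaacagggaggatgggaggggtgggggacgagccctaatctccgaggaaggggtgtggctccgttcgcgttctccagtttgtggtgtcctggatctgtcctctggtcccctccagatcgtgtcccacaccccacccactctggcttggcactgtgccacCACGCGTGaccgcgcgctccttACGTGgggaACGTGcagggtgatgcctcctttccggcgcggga
The Ldha promoter held 7 core matches, which include both strands of 2 CACGTG motifs, and 0.301% of the 32851 promoters searched held 7 or more. The Pgk1 promoter held 2 matches, both ACGTG, and the Hk1 promoter shown 5. The first listed Hk1 promoter held 0, and the second listed Ldha promoter held 2, both GCGTG. At least 1 match stood in a listed promoter of 9 of the 10 members. Counted by promoter it was 11 of their 15, against 43.8% of all promoters, and 20.6% of all held 2 or more. Both cores contain CG. The members' promoters held 51.3% to 67.3% G and C, against a mean of 53.8% over all promoters, and the part of base content in the matches was not tested. CACGTG was found in 1 listed promoter of the members, that of Ldha shown, and in 7.15% of all promoters. These are matches of letters in a window, not measured binding sites.

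Levels are in CPM, which relate a gene's count to the library total after TMM scaling. Total counts ranged from 10516722 to 16006001 per library. LPS library 1 at 24 h stood apart, with a TMM scaling factor of 0.799 and 16431 genes detected, so results that rest on it are given with and without it. Counts of the members ranged from 238 (Slc2a1) to 29249 (Ldha), and the counting error at the lowest count of a member was between 0.981% (Pkm) and 6.48% (Slc2a1). All 12 HSPC markers, among them Kit and Cd34, were present in every library, and their summed level was 2343 to 3024 CPM with PBS and 1687 to 1960 CPM with LPS at 24 h, where 6 of the 12 were lower. Markers of other cells were also present. Their levels stand beside the results below. These are bulk samples, in which fewer cells of a type and less RNA per cell cannot be told apart.

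In PBS libraries the 6 members from Aldoa to Ldha were more abundant than the 4 of the early steps. Per kilobase of annotated exon, Pkm held 206.7 ± 33.4 CPM per kb (SD, n = 5), Ldha 204 ± 55.7 and Pgk1 194 ± 31.2, which do not differ beyond their spread. Tpi1 (143 ± 18.7), Pgam1 (123 ± 32.1) and Aldoa (122 ± 32.7) came next, and their ranges overlapped one another. The early members were scarcer, with Hk1 at 33.4 ± 5.23, Pfkl at 22.5 ± 3.02, Hk2 at 11.8 ± 1.99 and Slc2a1 at 6.53 ± 1.25 CPM per kb. The PBS ranges of these last 4 genes did not overlap, those of Hk1 and Pfkl being 26.5 to 39.9 and 18.6 to 25.6. Pathway genes outside the 10 did not follow this order: Gpi1, an early enzyme, held 125.5 ± 26.3 CPM per kb, Eno1 97.4 ± 26.6 and Gapdh 65.2 ± 13.1. With LPS at 24 h Ldha had the highest mean, 614 ± 181 CPM per kb (SD, n = 3), in a range that overlapped that of Pgk1 (476 to 819 and 346 to 495). With LPS at 72 h Pkm had it, 202 ± 14.7, and overlapped both Pgk1 and Ldha.

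At 24 h after LPS, 9 of the 10 genes rose, from the glucose transporter Slc2a1 to the lactate dehydrogenase Ldha. The exception was Hk1. Of all genes tested, 19.1% were called higher and 37.6% in either direction by edgeR's quasi-likelihood test (adjusted p below 0.05). The 10 genes together held 3764 ± 678 CPM (SD, n = 5) in the controls and 7713 ± 1690 CPM (SD, n = 3) in the LPS libraries. Their median log2 change was 0.85, against -0.03 for all genes tested. In each of the 9 genes every LPS library lay above every PBS library, which held for 20.6% of all genes.

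Slc2a1 encodes GLUT1, a transporter that lets glucose into the cell. Its PBS libraries 1 to 5 held 29.3, 21.6, 18.9, 19.3 and 25.4 CPM, and the LPS libraries 1 to 3 held 38.5, 29.6 and 34.3. The lowest LPS library lay just above the highest PBS library (log2 change 0.57, SE 0.179, edgeR adjusted p = 0.0203). Hexokinases trap glucose in the cell by phosphorylation, Hk1 as the widely expressed form and Hk2 as the inducible one. Hk1 held 340.5, 226, 281, 315 and 264 CPM with PBS and 354, 325 and 408 with LPS. These ranges overlapped, and its change of 0.35 (SE 0.208) did not pass (edgeR adjusted p = 0.203). Hk2 held 58.2 to 87.3 CPM with PBS and 98.2 to 116 with LPS, and rose by 0.63 (SE 0.204, edgeR adjusted p = 0.0246). Pfkl, the liver-type subunit of phosphofructokinase, which catalyses the committed step, rose by 0.58 (SE 0.191, edgeR adjusted p = 0.0276), from 124 to 171 CPM with PBS to 192 to 262 with LPS.

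Aldoa splits the 6-carbon sugar and Tpi1 interconverts the resulting triose phosphates. Aldoa held 596, 404, 396, 563 and 309 CPM with PBS and 1462, 748 and 782 with LPS, and rose 2.2-fold (log2 change 1.14, SE 0.236). LPS library 1 was far above the other two, and without it the Aldoa change was 0.77 (edgeR adjusted p = 0.0225). Tpi1 rose by 0.88 (SE 0.17). Further down, Pgk1 makes ATP from 1,3-bisphosphoglycerate, Pgam1 moves the phosphate of its product and Pkm makes the last ATP along with pyruvate. Pgk1 held 520.2, 377, 385, 505 and 393 CPM with PBS and 1112, 776 and 826 with LPS, a 2.07-fold rise (log2 change 1.05, SE 0.157, edgeR adjusted p = 0.000487). Pgam1 rose by 1.07 (SE 0.219) and was even across the LPS libraries, at 503, 520.1 and 512 CPM. Pkm rose by 0.81 (SE 0.141), from 882 to 1270.4 CPM with PBS to 1568 to 2111 with LPS. Counts are per gene symbol, so the Pkm1 and Pkm2 splice forms were not separated.

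Ldha, the lactate dehydrogenase subunit that favours lactate formation, had the widest change of the 10. It held 978, 561, 540.4, 726 and 572 CPM with PBS and 2712, 1576 and 1811 with LPS. The lowest LPS library lay well above the highest PBS library, and the rise was 3.01-fold (log2 change 1.59, SE 0.2, edgeR adjusted p = 0.000397). Without LPS library 1 the change was 1.34 (edgeR adjusted p = 0.00287).

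**Figure D1:**
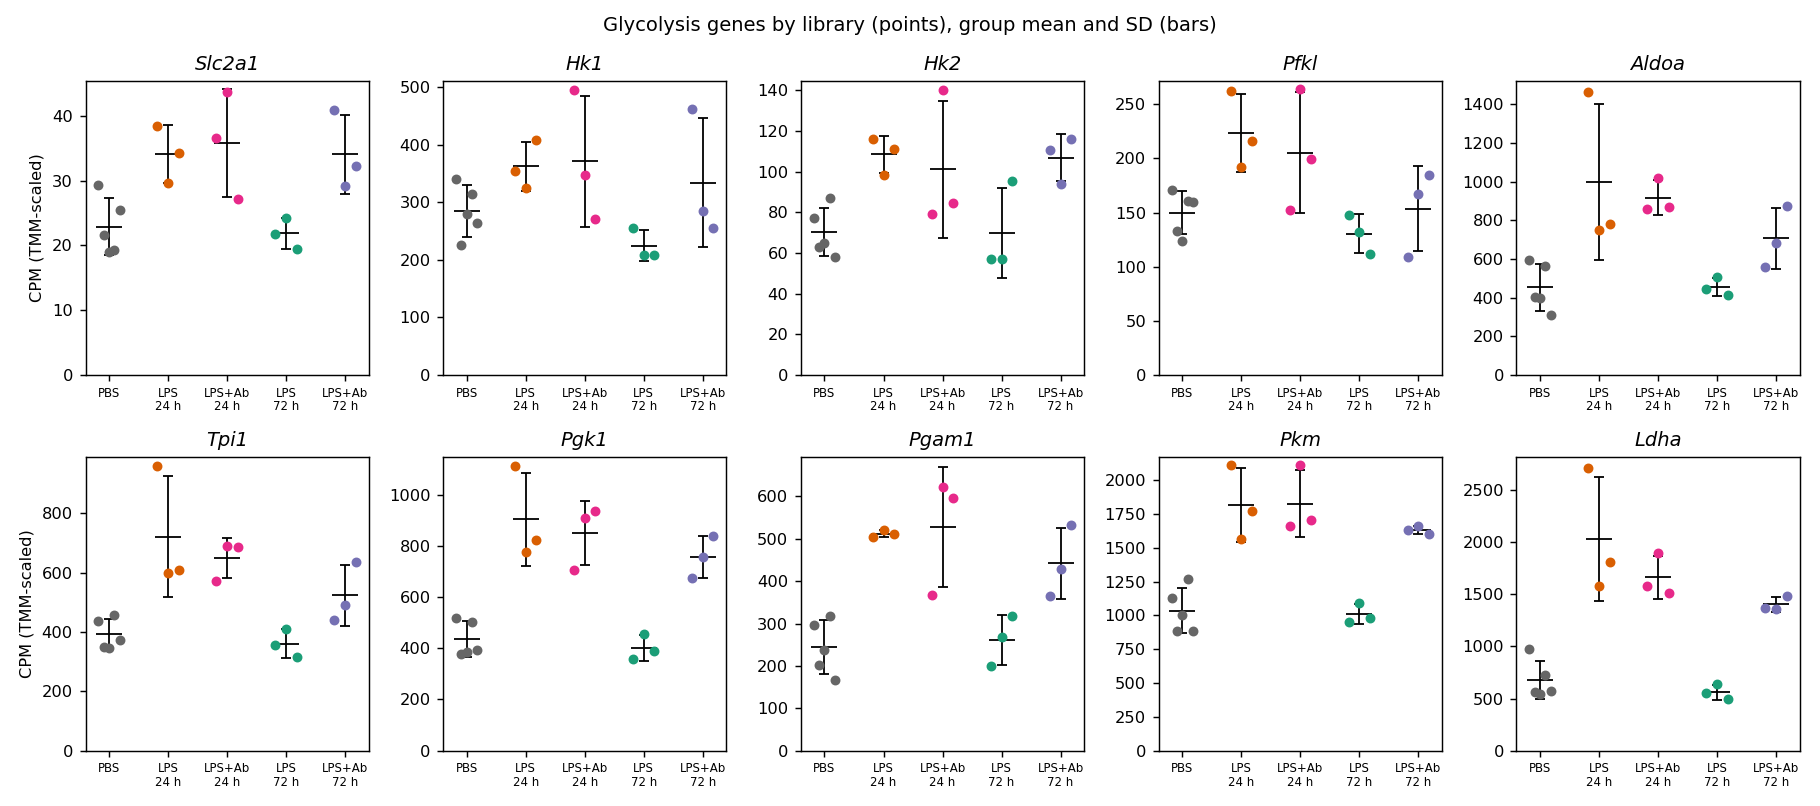
CPM (vertical axis, from 0) of each of the 10 glycolysis genes in every library (points) by group, with the group mean and SD (bars). The LPS libraries at 24 h lie above all PBS libraries in every panel but that of Hk1, and the 72 h LPS libraries lie back among the PBS range or near it.

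Without LPS library 1, 6 of the 10 genes were called at 24 h, against 22% of all genes in either direction. Those lost were Slc2a1 (edgeR adjusted p = 0.0893), Hk2 (0.0882) and Pfkl (0.128). Leaving out LPS library 3 instead also left 6 called, against 31.2% of all genes. With the replicate number as a block, 7 were called, against 27.9% of all genes, Hk2 (edgeR adjusted p = 0.0621) and Pfkl (0.0675) being lost. Monocyte-macrophage markers moved in the same comparison, where 18.5% of all genes were called lower. Of 13, 10 were lower, and their summed level was 654 to 3087 CPM with PBS and 408 to 785 CPM with LPS, with no marker at 0. B-lymphoid markers were lower for 3 of 9, from 392 to 1345 CPM to 73.4 to 97.6 CPM. Megakaryocyte markers were lower for 3 of 7 (172 to 284 CPM and 139 to 266 CPM) and T and NK markers for 2 of 9 (106 to 274 CPM and 116 to 274 CPM). None of 11 tested neutrophil markers was called (2535 to 15125 CPM and 8864 to 17675 CPM, with Ly6g at 0 in some libraries). Of the 13 erythroid markers Tfrc was higher and Hbb-bt lower, and their sum was 601.5 to 944 CPM with PBS and 754 to 1699.5 CPM with LPS. The part of these cells in the rise of the glycolysis genes was not tested.

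With the antibody added, 7 of the 10 genes rose at 24 h against PBS, where 11.7% of all genes tested were called higher: Slc2a1, Aldoa, Tpi1, Pgk1, Pgam1, Pkm and Ldha. Ldha held 1580 (library 1), 1901 (library 2) and 1511 CPM (library 3), a 2.46-fold rise (log2 change 1.30, SE 0.2, edgeR adjusted p = 0.00353). Pgk1 changed by 0.96 (SE 0.157) and Slc2a1 by 0.64 (SE 0.179). Hk1 (0.38, SE 0.208), Hk2 (0.53, SE 0.204) and Pfkl (0.45, SE 0.192) did not pass. The Hk1 libraries were spread from 271 to 496 CPM and those of Hk2 from 78.9 to 139.9. Groups did not overlap for 6 of the 10 genes, against 14.2% of all genes. Without antibody library 2, 4 were called, against 5.73% of all genes in either direction. Monocyte-macrophage markers were lower here for 8 of 13 (726 to 881 CPM), megakaryocyte markers for 5 of 7 (60.2 to 299 CPM), HSPC markers for 5 of 12 (1857 to 2219 CPM, with Ly6a higher), B-lymphoid markers for 2 of 9 and T and NK markers for 1 of 9, where 12.5% of all genes were lower. Tfrc was the 1 erythroid marker called, and was higher. Their part in the rise was not tested.

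Set directly against LPS alone at 24 h, the antibody changed 0 of the 10 genes, as it did 0% of all genes by edgeR. At an unadjusted p below 0.05 there were 0 members and 273 genes in all (1.83%), and DESeq2 called 0 members. The differences ran from -0.29 for Ldha (interval of 2 SE from -0.75 to 0.17) to 0.07 for Slc2a1 (-0.34 to 0.47). Over the 10 genes the intervals reached from -0.75 (Ldha) to 0.54 (Pgam1). An effect of the antibody inside a gene's own interval is within the error.

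At 72 h after LPS alone, none of the 10 genes was called against PBS by edgeR (0 at an unadjusted p below 0.05 and 0 by DESeq2), where 0.0201% of all genes were called and 11.4% had such an unadjusted p. Together they held 3495 ± 259 CPM (SD, n = 3). Ldha held 551, 636.5 and 494 CPM, inside or just under the PBS range, a log2 change of -0.27 (interval of 2 SE from -0.68 to 0.14). Pgk1 held 359, 456 and 389 CPM (change -0.12, interval -0.44 to 0.20), and Pkm 952, 1092 and 984 CPM (-0.03, interval -0.32 to 0.25). The lowest change of the 10 was that of Hk1, at 255, 209 and 208 CPM, or -0.35 (interval -0.77 to 0.08). No marker of these 2 lists was called, but 9 of 13 monocyte-macrophage markers lay below every PBS library and 1 above. Of 13 erythroid markers 9 lay below and 0 above. For all genes this was 7.01% below and 4.96% above. The erythroid sum was 173 to 454 CPM, against 601.5 to 944 CPM with PBS. The part of these cells in the result was not tested.

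Against LPS at 24 h, all 10 genes fell at 72 h, and for each of them every 72 h library lay below every 24 h library. Of all genes tested, 16.4% were called lower and 23% lay without overlap in that direction. Ldha changed by -1.86 (SE 0.236, edgeR adjusted p = 0.000168), Pgk1 by -1.17 (SE 0.181) and Aldoa by -1.13 (SE 0.272). Hk1 fell here too (-0.69, SE 0.236, edgeR adjusted p = 0.0361). The smallest changes were those of Slc2a1 (-0.64, SE 0.205) and Hk2 (-0.63, SE 0.232, edgeR adjusted p = 0.0499). One 72 h library of Hk2 held 95.5 CPM against 57.2 in each of the others. Without LPS library 1 at 24 h, 6 of the 10 were called, against 22.9% of all genes in either direction, and Slc2a1, Hk1, Hk2 and Pfkl were not (edgeR adjusted p from 0.0623 for Pfkl to 0.138 for Hk2). Erythroid markers were lower in 4 of 13 in this comparison, with sums of 173 to 454 CPM at 72 h. Of 12 HSPC markers 7 were higher, as were 14.7% of all genes. The part of these cells in the fall was not tested.

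**Figure D2:**
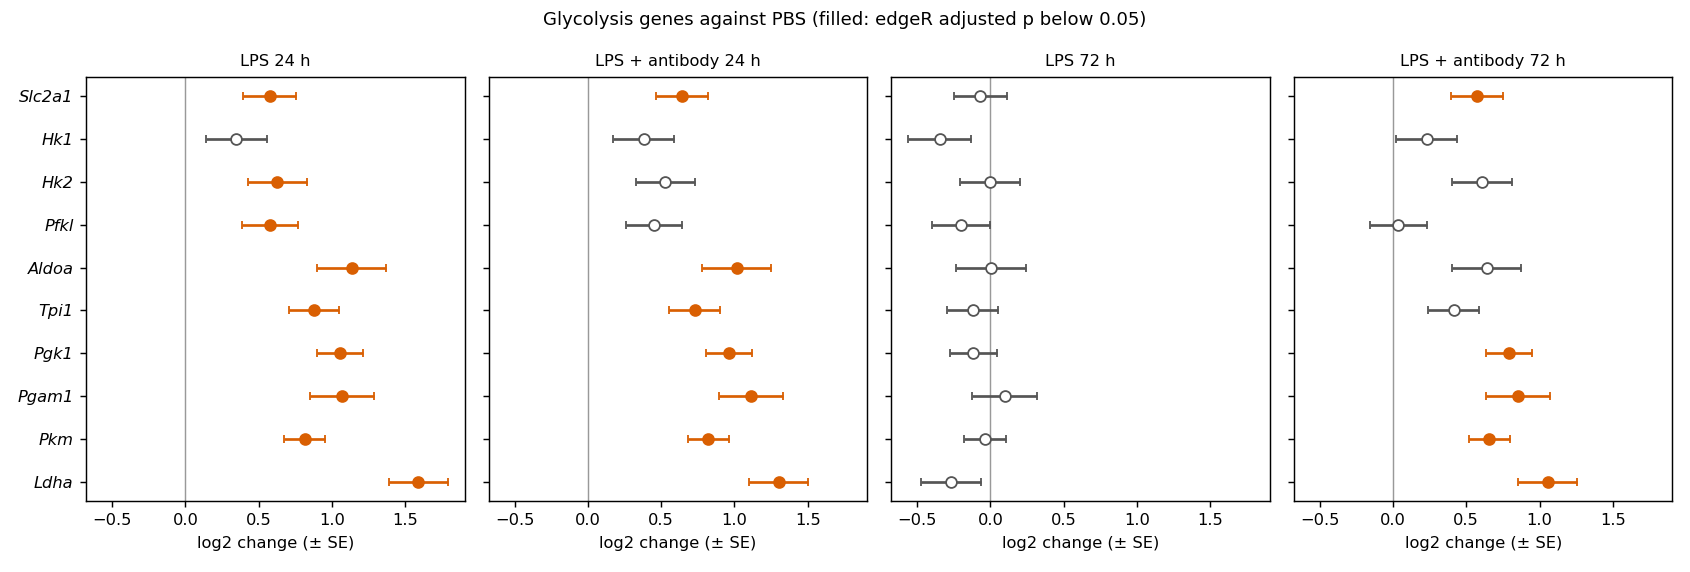
Log2 change against PBS (horizontal axis, ± SE) of each gene in the 4 treated groups, filled where the edgeR adjusted p is below 0.05. All 10 points lie right of 0 at 24 h with LPS, around 0 at 72 h with LPS alone, and right of 0 again at 72 h with LPS and antibody, where Pfkl is at 0.04.

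With the antibody, 5 of the 10 genes were higher at 72 h than with PBS, where 6.81% of all genes were called higher: Slc2a1, Pgk1, Pgam1, Pkm and Ldha. Together the 10 held 6095 ± 412 CPM (SD, n = 3). Ldha held 1373, 1358 and 1486 CPM, above every PBS library, a 2.08-fold rise (log2 change 1.06, SE 0.201, edgeR adjusted p = 0.00837). Pgk1 held 673, 757 and 839.5 CPM (change 0.79, SE 0.157), also above every PBS library. Pkm was even, at 1630.4, 1664 and 1601 CPM (0.66, SE 0.141). Slc2a1 held 40.9, 29.1 and 32.2 CPM, the second just under the highest PBS library, and its change of 0.57 (SE 0.179) was close to the threshold (edgeR adjusted p = 0.0469). Hk2 (0.61, edgeR adjusted p = 0.0573), Aldoa (0.64, 0.0791) and Tpi1 (0.41, 0.112) did not pass. Pfkl changed by 0.04 (SE 0.194), with 109, 167 and 185 CPM. Without PBS library 2, or without antibody library 3 at 72 h, 3 were called, against 6.32% and 3.82% of all genes in either direction, and Slc2a1 and Pgam1 were not. In this comparison 3 of 13 monocyte-macrophage markers (sum 507 to 892 CPM with the antibody), 3 of 9 T and NK markers (71.3 to 198 CPM) and 2 of 12 HSPC markers were lower, where 6.43% of all genes were. The part of these cells in the result was not tested.

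Against LPS alone at the same time, the antibody group at 72 h was higher for 4 of the 10 genes, Slc2a1, Pgk1, Pkm and Ldha, where 8.64% of all genes were called higher. Libraries did not overlap for 7 of the 10, against 17.1% of all genes. Ldha at 1358 to 1486 CPM was above the 494 to 636.5 CPM of LPS alone, a 2.51-fold difference (log2 1.33, SE 0.233, edgeR adjusted p = 0.00293). Pgk1 differed by 0.91 (SE 0.18, edgeR adjusted p = 0.00515), Pkm by 0.69 (SE 0.161) and Slc2a1 by 0.64 (SE 0.205, edgeR adjusted p = 0.0459). Pgam1 (0.76, edgeR adjusted p = 0.0529), Tpi1 (0.54, 0.0736), Hk2 (0.61, 0.0841), Hk1 (0.58, 0.105) and Aldoa (0.64, 0.116) lay on the same side without passing. Pfkl differed by 0.24 (SE 0.218). Without LPS library 1 at 72 h, Pgk1 and Ldha were called, against 5.02% of all genes in either direction, and Slc2a1 was lost in 5 of the 6 fits that left out a library. Of the marker lists, 4 genes were called in this comparison: Tfrc, an erythroid marker that dividing cells use for iron uptake, was higher, and Csf1r (monocyte-macrophage), Cd34 (HSPC) and Klrb1c (T and NK) were lower. The monocyte-macrophage list had a median log2 difference of 2.05, with 8 of 13 above 0 and summed levels of 507 to 892 CPM with the antibody and 683 to 1329 CPM without it. The erythroid list had a median of 1.70, with 13 of 13 above 0. The part of these cells in the difference was not tested.

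The antibody effect at 72 h minus that at 24 h was above 0 for all 10 genes and passed for 2, where 4.03% of all genes were called higher. It was 1.62 for Ldha (SE 0.326, edgeR adjusted p = 0.0136) and 1.00 for Pgk1 (SE 0.253, edgeR adjusted p = 0.0314). Tpi1 (0.69, edgeR adjusted p = 0.14), Pkm (0.68, 0.0798) and Hk2 (0.71, 0.197) had an unadjusted p below 0.05 only, and 24.2% of all genes had an unadjusted p that low. Ldha was called in each of the 12 fits that left out a library, with a difference of 1.32 without LPS library 1 at 24 h. Pgk1 was lost in 5 of the 12, that one among them (0.79, edgeR adjusted p = 0.0683). Between 24 h and 72 h within the antibody groups, 0 of the 10 genes were called by edgeR, as were 0% of all genes (0 members and 635 genes in all, or 4.26%, at an unadjusted p below 0.05, and 0 members by DESeq2). For the difference of antibody effects, other genes of the pathway lists were called in both directions: Slc16a1, Tigar, Dlat, Dld, Cs and Idh3a above 0, and the aldolase Aldoc and the kinase Pdk2 below it, as were 2.32% of all genes. The Ldha difference between 72 h and 24 h with the antibody was -0.24 (interval of 2 SE from -0.70 to 0.21). Of the 10 changes in that comparison, 1 was above 0. For 2 of the 10, Ldha and Pkm, every 72 h library lay below every 24 h library, as for 4.38% of all genes.

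**Figure D3:**
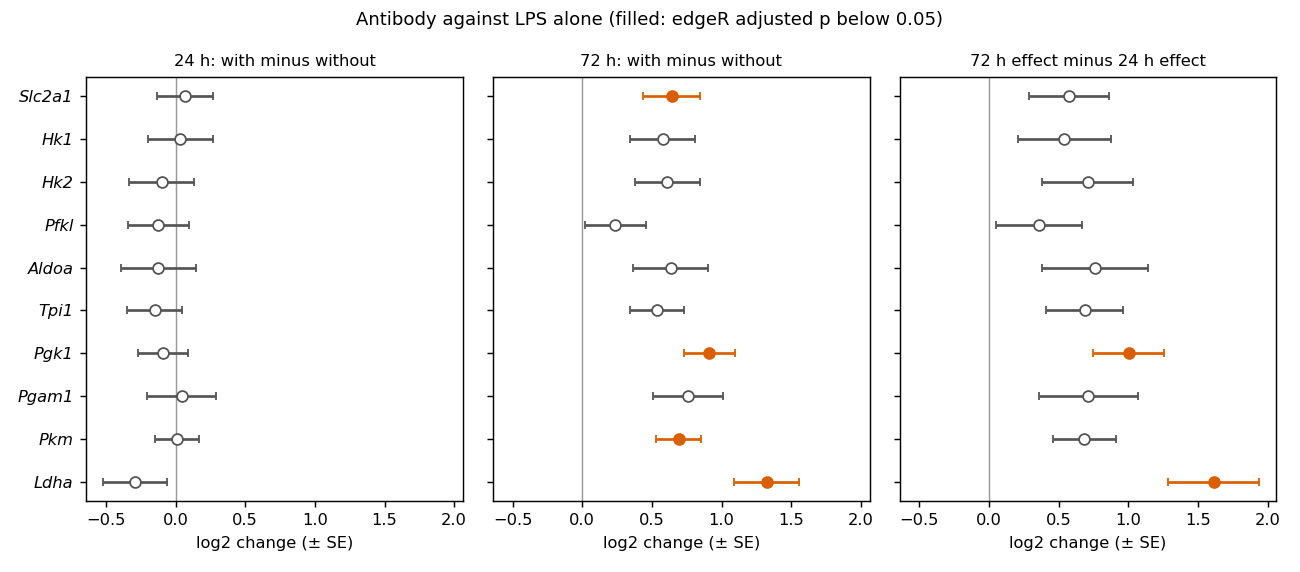
Log2 difference (horizontal axis, ± SE) between the groups with and without the antibody at 24 h and at 72 h, and the difference of these effects, filled where the edgeR adjusted p is below 0.05. The 24 h points lie around 0, the 72 h points all lie right of it, and Ldha (1.62) and Pgk1 (1.00) pass in the right panel.

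Isozymes were compared at 3 steps. The balance shifted for lactate dehydrogenase, and for phosphofructokinase the shift against PBS passed only in the antibody groups. Ldhb encodes the subunit that favours pyruvate formation from lactate. It held 40.1 to 45.2 CPM with PBS and 15.1, 14.1 and 10.8 CPM with LPS at 24 h, and so fell (log2 change -1.68, SE 0.32, edgeR adjusted p = 0.00141). The log2 ratio of Ldha to Ldhb counts averaged 3.95 ± 0.388 (SD, n = 5) in the PBS libraries. It was 7.22 ± 0.368 (SD, n = 3) with LPS at 24 h, 3.98 ± 0.218 with LPS at 72 h and 6.64 ± 0.86 with the antibody at 72 h. The ratio lay above every PBS library in all libraries of LPS at 24 h and of both antibody groups (exact permutation test, two-sided, p = 0.0179, adjusted over 12 tests 0.0429 in each), and 0.0179 is the smallest p that 3 against 5 libraries allow. For LPS at 72 h the exact p was 0.875.

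Pfkp, the platelet-type phosphofructokinase subunit, rose at 24 h by 1.08 (SE 0.209), more than Pfkl. The log2 ratio of Pfkp to Pfkl averaged -0.80 ± 0.272 (SD, n = 5) in the PBS libraries. With LPS at 24 h it was -0.29 ± 0.0445 (SD, n = 3), also above every PBS library, but the exact permutation p was 0.0357 (adjusted 0.0714). The difference from PBS at 24 h was 0.513 with LPS alone and 0.61 with the antibody. These 2 groups were not compared with each other for this ratio. With the antibody it was -0.19 ± 0.297 at 24 h and 0.35 ± 0.616 at 72 h, both above every PBS library (exact permutation test, adjusted p = 0.0429). The 72 h antibody libraries ranged from -0.16 to 1.03. The ratio of Hk2 to Hk1 did not pass in any group (exact permutation test, adjusted p from 0.107 to 0.643), and was -2.02 ± 0.165 with PBS and -1.60 ± 0.462 with the antibody at 72 h.

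**Figure D4:**
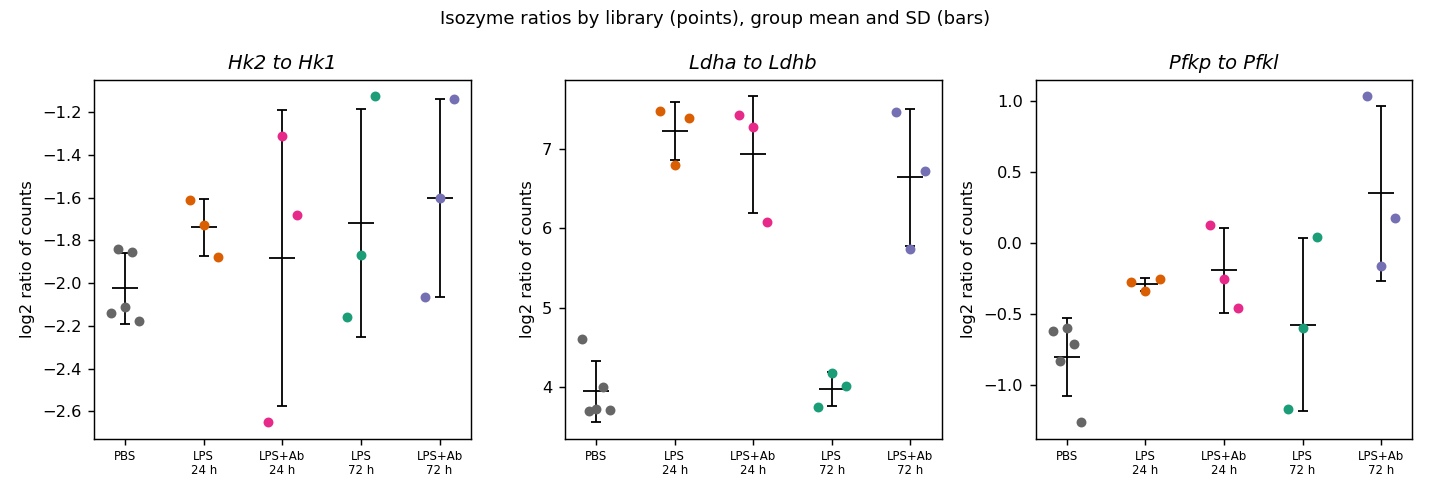
Log2 ratio of counts (vertical axis) of Hk2 to Hk1, Ldha to Ldhb and Pfkp to Pfkl in every library (points) by group, with mean and SD (bars). The Ldha to Ldhb ratio is near 4 with PBS and with LPS at 72 h and above 5.7 in every other library, and the Hk2 to Hk1 ratio overlaps between all groups.

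The 10 genes varied together to different degrees. Over the 17 libraries the Pearson r of log2 CPM between members ranged from 0.29 to 0.98 (median 0.78, 45 pairs), and after the group means were removed from -0.36 to 0.90 (median 0.45). Ldha (r = 0.98), Pkm (0.97) and Pgk1 (0.97) were the most like the mean of the other members, and Hk1 the least (0.57). The genes outside the list with the pattern most like the members' mean were Mrps2, Imp4, Nop9, Eif3b and Elac2 (r from 0.987 to 0.99 over 17 libraries). Eif3b, a translation initiation factor subunit, went from 409 CPM with PBS to 831.5 with LPS at 24 h, 348 with LPS at 72 h and 614 with the antibody at 72 h. Libraries share treatment groups, so these r values describe the groups as much as single libraries.

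The rest of the pathway moved in part. Of 19 other glycolysis genes, 15 were tested. At 24 h after LPS 5 of them rose and 2 fell (median log2 change -0.03), where 19.1% of all genes rose and 18.5% fell. Those that rose included the abundant enzymes Eno1 (enolase, 1.14, SE 0.227) and Gapdh (0.84, SE 0.166), and Gpi1 (0.63, SE 0.202), whose call was lost without LPS library 1 (edgeR adjusted p = 0.2) and with the replicate block (0.0581). Aldoc, another aldolase, fell by 2.61 along with Ldhb. At 72 h with the antibody, Eno1 (0.84) and Pfkp (1.16) were higher than PBS, whereas Gapdh (0.52, edgeR adjusted p = 0.0516) and Gpi1 (0.42, edgeR adjusted p = 0.172) did not pass. Eno1b, a near-copy of Eno1, held 10.5 to 22.2 CPM with PBS and 31.1 to 34.5 CPM with LPS at 24 h, and Gapdh has processed copies in the genome. How reads that match several genes were counted is not given in the sources used here, so the levels of both are uncertain.

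Of 7 tested genes for glucose and lactate transport, 3 rose and 2 fell at 24 h after LPS, against 19.1% and 18.5% of all genes. Slc16a1 (MCT1), which carries lactate and pyruvate, rose 2.81-fold (log2 change 1.49, SE 0.211), Slc16a3 (MCT4), a lactate exporter, by 0.75 and their chaperone Bsg by 0.72. The Slc16a3 call was lost without LPS library 1 (edgeR adjusted p = 0.0715) and with the replicate block (0.0639). Slc2a3 (GLUT3), a second glucose transporter, went the other way from Slc2a1, at 38.2 to 68.2 CPM with PBS and 29.4, 33.7 and 32 CPM with LPS (-0.71, SE 0.228, edgeR adjusted p = 0.0226), a call lost without LPS library 1 (0.0943). With the antibody at 72 h, Slc16a1 was 1.46 and Slc16a3 1.37 above LPS alone (edgeR adjusted p = 0.00236 and 0.00361). For Slc16a1 the antibody effect was larger at 72 h than at 24 h by 1.81 (SE 0.344, edgeR adjusted p = 0.0107).

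Calls in the pathways fed by glycolysis were upward at 24 h after LPS, where 19.1% of all genes were called higher and 18.5% lower. Of 16 TCA cycle genes 10 rose, among them Mdh2 (1.05) and Idh3a (0.97). Of 7 pentose phosphate genes 6 rose, Pgd by 0.89 and Rpia by 0.83. Of 8 genes that bring pyruvate into the mitochondria 5 rose, among them the pyruvate dehydrogenase subunits Dlat (0.97) and Dld (0.87). At 72 h with the antibody 4 TCA genes and 4 pyruvate genes were above PBS by edgeR, as were 6.81% of all genes. Of these lists 1 gene (Pcx) was below PBS, as were 6.43% of all genes.

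Genes that steer the pathway were mixed. Of 11 tested regulators, Tigar (1.30), which lowers fructose-2,6-bisphosphate, and Pdk3 (0.38), a kinase that inhibits pyruvate dehydrogenase, rose at 24 h, and Pdk2, Txnip and Pfkfb4 fell. Of all genes 19.1% were called higher then and 18.5% lower. Pfkfb3, which makes the phosphofructokinase activator fructose-2,6-bisphosphate, was called at 72 h with the antibody, above PBS by 0.64 (SE 0.163) and above LPS alone by 0.80. In that last comparison 3 regulators were higher, as were 8.64% of all genes, and Pdk2 was lower, as were 6.48%. Myc rose by 0.57 at 24 h after LPS (SE 0.197, edgeR adjusted p = 0.034), a call lost without LPS library 1 (0.0955) and with the block (0.114). It was lower at 72 h than at 24 h after LPS, also without LPS library 1 (edgeR adjusted p = 0.0295). With the antibody at 72 h Myc held 387, 385 and 305 CPM. It was called higher than with LPS alone (217, 219 and 232 CPM), and was not called against PBS. At 24 h after LPS its relatives Mycn and Mycl fell by 1.79 and 1.93. Of 18 tested genes of HIF-1 and hypoxia, 1 rose (P4ha1, 0.40) and 3 fell at 24 h, against 19.1% and 18.5% of all genes. Hif1a did not pass then (0.31, edgeR adjusted p = 0.149). With the antibody at 72 h it held 97.6, 102.6 and 109 CPM, above the 56.3 to 70.7 of PBS and the 45 to 61.3 of LPS at 72 h, a change of 0.73 against PBS (edgeR adjusted p = 0.013) and 0.98 against LPS alone (0.00409). Few other genes of this list were called. Of its 18 tested genes, Hif1a included, 8 had a change above 0 against PBS and 9 against LPS alone. Against PBS, Car9 was the 1 other gene called and was lower, as were 6.43% of all genes. Against LPS alone P4ha1 was higher too, and Vhl and Car9 were lower, where 8.64% of all genes were higher and 6.48% lower.

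**Figure D5:**
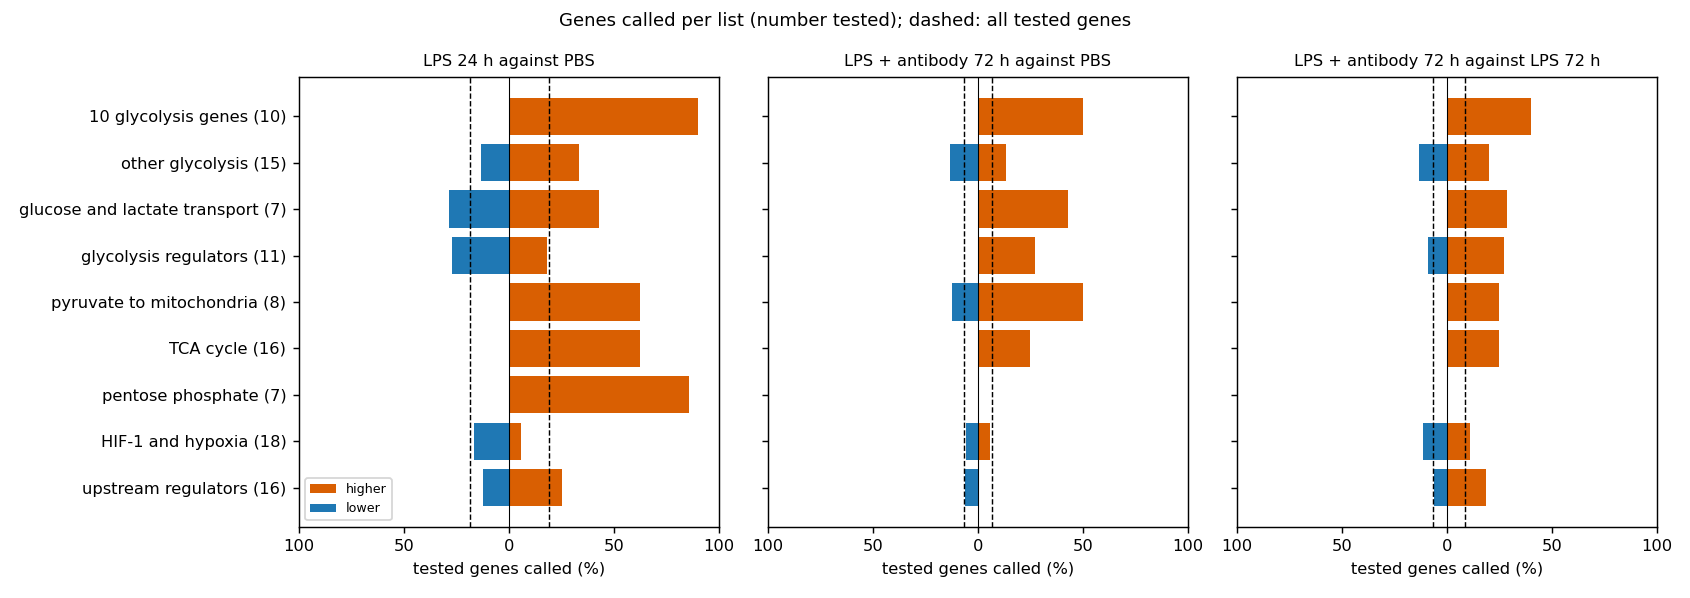
Share of the tested genes of each list (number tested in parentheses) called higher (right) or lower (left) by edgeR in 3 comparisons, with the share of all tested genes as dashed lines. The 10 glycolysis genes, TCA cycle and pentose phosphate lists have calls only to the right at 24 h after LPS. The HIF-1 and hypoxia list has calls in both directions in all 3 panels.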

How the data were processed

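RNA from sorted cells of 17 samples was measured by polyA RNA sequencing. The authors deposited 1 table of raw read counts per gene symbol (35321 genes). Per the submitters' processing notes, HISAT2 2.2.0, Subread, featureCounts 2.1.1, R 4.3.2, DESeq2 and the build GRCm38 were used. The annotation, strandedness and rule for reads that match several genes are not given in the sources used here. There were 0 columns of per-sample values without a label.

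The counts went into edgeR 4.0.16 (R 4.3.3): filterByExpr (minimum count 10, minimum total 15; 14920 genes with 99.9% of the counts), TMM factors, and a quasi-likelihood fit of all 17 libraries with a mean per group. Genes with a Benjamini-Hochberg adjusted p below 0.05 over all genes tested were called. SE is the absolute log2 change divided by the square root of F. CPM use the TMM-scaled totals; CPM per kb uses merged exons of GENCODE M21, where Aldoa has 2 records, and may differ from the lengths the authors used. Ratios of isozymes are log2 of counts plus 0.5, compared by exact permutation tests. Promoters are from RefSeq, and all 10 members matched.

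The members, 9 further lists of 115 genes and 7 marker lists were chosen with earlier results of these data known. All members are reported in every comparison; from other lists, up to 4 called genes per direction by size of change, and Gapdh, Eno1, Gpi1, Pfkp, Ldhb, Slc2a3, Slc16a1, Slc16a3, Hif1a and Myc in any case. Of gluconeogenesis, 3 of 7 genes were tested and Fbp1 fell at 24 h after LPS, as did 18.5% of all genes. Alternatives were DESeq2 1.42.0, other scaling factors, no filter, only the groups compared, libraries numbered 1 to 3, the replicate number as a block, a ratio offset of 2 and leaving out each library. Same-numbered libraries deviated together with r from -0.415 to 0.723 (mean 0.0894, 30 pairs). The highest r lay between the antibody groups at 24 h and 72 h, 0.723 for library 1 and 0.697 for library 3. For library 2 of these groups it was -0.0217. In 1 of 10 pairs of groups, PBS and LPS at 24 h, every r was over 0.1 (0.158 to 0.191), and the numbers were taken as a pairing there only, from the data and not from the labels. The scripts were tested on simulated data.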

Additional observations from a re-analysis of the deposited data

Results flagged for a closer look

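The effect of the antibody differed between the times for 10 of 111 tested genes of the pathway lists, by a test of the difference itself (edgeR's quasi-likelihood test), 8 upward and 2 downward. Of all genes tested, 6.35% were called for this difference, 4.03% upward and 2.32% downward. The 72 h effect minus the 24 h effect was 1.62 for Ldha, 1.00 for Pgk1 and 1.81 for the lactate transporter Slc16a1 on the log2 scale. The Pgk1 call was lost in 5 of the 12 fits that left out a library (0.79, edgeR adjusted p = 0.0683, without LPS library 1 at 24 h) and with only the groups compared (edgeR adjusted p = 0.0581). The difference was 1.5 for Tigar, 1.18 for Idh3a, 1.01 for Dlat, 0.989 for Dld and 0.744 for Cs, and it was -2.48 for Aldoc and -2.38 for Pdk2. Of the marker genes Csf1r was called, at -1.5. For Slc16a1 the 24 h libraries held 315, 201 and 227 CPM with LPS and 155, 262 and 166 CPM with the antibody, and the 72 h libraries held 57.6, 74.9 and 70.9 CPM and 151, 189 and 220.2 CPM. Among 23 PBS groups of 5 libraries checked for a library far from the others (20 genes and 3 ratios), none was found by Dixon's test at its 95% critical value of 0.71.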

How the results depend on the processing

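A count of members was taken as kept when it changed by no more than 1.5 times, so a kept count can include lost calls. A ratio was taken as kept when its direction and side of the threshold stayed. Of 87 summary results under alternatives other than leaving out a library, 79 were kept, 8 were weaker and 0 reversed. Of 164 on leaving out a library, 113 were kept, 50 were weaker, 1 was stronger and 0 reversed. Only ratios could be labelled as reversed. With only the groups compared in the fit, 1 member was called for the difference of antibody effects, against 2. With the replicate block, 1 was called there and 2 at 72 h with the antibody against PBS, and the ratio differences were 3.22, 2.92 and 2.63 (Ldha to Ldhb, in the order LPS 24 h, antibody 24 h, antibody 72 h) and 0.488 and 1.03 (Pfkp to Pfkl, antibody 24 h and 72 h; adjusted p 0.375, since 3 pairs cannot go below 0.25). The block changed no other count of members by over 1.5 times. Leaving out 1 library gave 6 to 9 members called for LPS at 24 h against PBS, 4 to 9 for the antibody at 24 h, 3 to 6 for the antibody at 72 h, 6 to 9 for LPS at 72 h against 24 h, 2 to 5 for the antibody against LPS alone at 72 h and 1 to 4 for the difference of antibody effects; the other 3 counts stayed at 0. Ldha to Ldhb ranged from 3.15 to 3.49, 2.73 to 3.4 and 2.28 to 3.14, and Pfkp to Pfkl from 0.449 to 0.742 and 0.81 to 1.41, none past the threshold because fewer libraries raise the smallest p. Counts over all genes moved by over 1.5 times in 16 of 63 cases, and in 25 of 68 on leaving out a library. For the antibody against PBS at 24 h (3605) they were 1721 with the block and 1730 with libraries 1 to 3, and at 72 h (1975) 374 and 548. For the difference of effects (947) they were 333 with the block, 605 with libraries 1 to 3, 286 with only the groups compared, 617 without the filter and 1673 with DESeq2. With only the groups compared, the antibody against LPS alone at 72 h gave 1123 (2256). LPS at 72 h against PBS (3) gave 99 with only the groups compared, 178 with DESeq2 and 0 with the block and with libraries 1 to 3, and DESeq2 called 1 gene for the antibody against LPS alone at 24 h and 2 between the antibody groups (0 and 0). Leaving out a library gave 3361 to 5443 for LPS at 24 h against PBS (5616) and 231 to 1544 for the difference of effects. Upper-quartile factors moved the median of all genes at 24 h after LPS to -0.156 and left 6 members called. Depth limits Slc2a1 most.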
